A study of Mus musculus with 12 samples.

Results

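The FUBP family and its best known target were examined as RNAs bound by Puf60 and Rbm38: the genes Fubp1, Fubp3, Khsrp, Myc and Mycn, 5 of 49997 mouse genes with coordinates. The far upstream element binding proteins are KH domain proteins that bind single-stranded DNA and RNA. In human cells FUBP1 binds an element upstream of MYC and raises its transcription, and PUF60, also called the FUBP-interacting repressor, acts through FUBP1 and the general transcription factor TFIIH to lower it. Puf60 also takes part in splicing, where it contacts pyrimidine-rich RNA, and Rbm38 binds RNA and is known as a target of p53. The genes were chosen for this known link. A cluster, a stretch of RNA where reads pile up, was given to a gene when its centre lay in the gene body on the gene's strand. This took 64, 84 and 78 clusters from the tables of Puf60 with exon 5, Puf60 without exon 5 and Rbm38, or 226 of 124941 in all.

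The data came from iCLIP, in which ultraviolet light (150 mJ/cm2) joins proteins to the RNA they touch before the protein is pulled down, here with a Flag antibody. Each protein was expressed in N2A cells, a mouse neuroblastoma line, from a doxycycline-inducible transgene (1 µg/ml, Flp-in system), with 3 CLIP samples and 1 size-matched input for each protein, 12 samples in all. Puf60 with exon 5 was induced for 48 h before CLIP and its input for 24 h. Puf60 without exon 5, Rbm38 and both of their inputs were induced for 24 h, so isoform and induction time cannot be told apart. Enrichment over input with exon 5 thus also compares 48 h of induction with 24 h. The transgene comes on top of the cell's own genes, and the Flag antibody is directed against the tagged protein alone.

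The values are the authors' own, 1 table per protein with a log2 fold per cluster, read as CLIP over input, and its p-value before and after adjustment. They hold no values per library, so depth and the spread between replicates are unknown and no difference between proteins could be tested. A cluster with an adjusted p under 0.05 is called enriched. Of the sympathetic neuroblast genes that could mark N2A cells, Hand2, Gata2 and Phox2a had clusters in at least 1 table, while Dbh, Gata3, Isl1, Th and Mycn had none. The tables hold bound or input RNA above an unstated level, so this is a weak check of the label.

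All 3 proteins had clusters enriched over input in Fubp1, Fubp3, Khsrp and Myc, and none had a cluster in Mycn. Fubp1 held most of those of Puf60, and in Fubp3 the isoforms with and without exon 5 had 2 and 1 enriched clusters, against 9 for Rbm38. At least 1 enriched cluster was also found in most protein-coding genes with a listed one. The shares of such genes were 64.6% with exon 5, 62.9% without and 84% for Rbm38. Over the 5 genes, 46 of 64 clusters of Puf60 with exon 5 were enriched (71.9%, Wilson 95% interval 59.9 to 81.4), against 39.1% of that whole table. For Puf60 without exon 5, 61 of 84 were enriched (72.6%, 62.3 to 81.0), against 36.1% of the whole table. For Rbm38 the count was 46 of 78 (59.0%, 47.9 to 69.2), against 50.9% of the whole table, which lies inside the interval. Among clusters on the strand of any protein-coding gene the shares were 39.4%, 36.5% and 51.9%. The intervals cover counting error only, and clusters of 1 gene share their RNA. Fubp1 held 159 of the 226 clusters, so counts over the 5 genes mostly describe Fubp1.

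**Figure D1:**
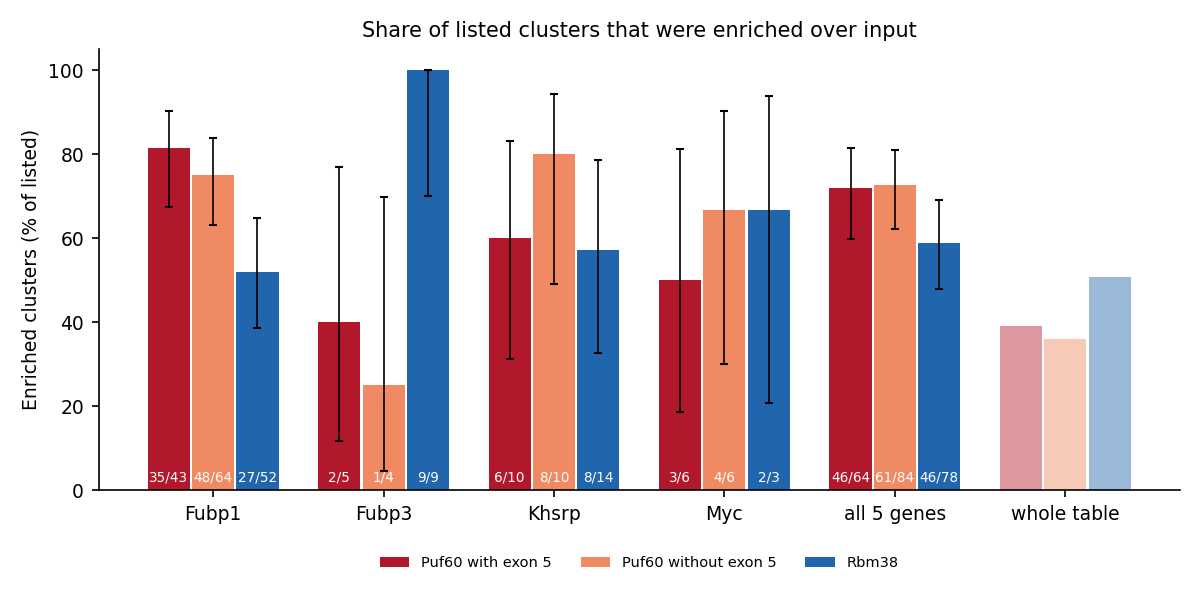
Share of listed clusters that were enriched over input (vertical axis, %), by gene and protein, with enriched and listed counts inside the bars and Wilson 95% intervals as error bars. Paler bars give the whole tables (39.1%, 36.1% and 50.9%). Fubp1 stands above the whole table for both Puf60 isoforms, Fubp3 reaches 100% for Rbm38, and intervals are wide where few clusters were listed.

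Fubp1 (gene 51886, chromosome 3, 152210422 to 152236830, plus strand, mm10) encodes the founding member of the family. It was densely covered by both isoforms. Puf60 with exon 5 had 35 enriched clusters of 43 (81.4%), Puf60 without exon 5 had 48 of 64 (75%), and Rbm38 had 27 of 52 (51.9%). By number of enriched clusters it ranked 7 among 5325 protein-coding genes listed for Puf60 with exon 5, 3 among 5500 without exon 5 and 47 among 6125 for Rbm38. Per kb of gene body it had 1.33, 1.82 and 1.02 enriched clusters, and its rank by this density was 72, 37 and 161. Enriched clusters spanned 4700, 5650 and 2700 nt, or 17.8%, 21.4% and 10.2% of the gene. RNA levels were not analysed here, and the part of Fubp1 RNA abundance in these counts was not tested.

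One site in Fubp1 stood far above the rest for Puf60. With exon 5 it lay at 152227351 to 152227550, with a log2 fold of 7.24 per the authors' deposited table, the 4th highest of 36227 clusters. Without exon 5 it lay at 152227251 to 152227500, with a log2 fold of 7.28 per the authors' deposited table, the 7th highest of 39454. Its adjusted p is written as 0 in both of the authors' deposited tables. The Rbm38 table lists clusters at the same place, at 152227251 to 152227300 and 152227351 to 152227450, with log2 folds of -0.07 and 0.26 per the authors' deposited table, neither enriched. Both Puf60 isoforms thus stood high where Rbm38 was near its input. It lies 17.0 kb from the 5′ end of the gene and 9.38 kb from the 3′ end in the table with exon 5.

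A long stretch nearer the 3′ end was bound by all 3 proteins. For Puf60 with exon 5 it formed 1 cluster of 1650 nt, the 23rd longest of its table, at 152231951 to 152233600 with a log2 fold of 4.32 per the authors' deposited table. For Puf60 without exon 5 the cluster of 1450 nt, the 35th longest, had a log2 fold of 3.61 per the authors' deposited table. Inside this stretch Rbm38 had its highest log2 fold in the gene, 4.07 over 700 nt at 152232351 to 152233050, and next to it 3.10 over 300 nt, per the authors' deposited table. No cluster of this gene outside the stretch exceeded a log2 fold of 3.07 for Rbm38 per the authors' deposited table.

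The other leading clusters of Fubp1 were narrower. With exon 5 they had log2 folds of 4.76 (152234051 to 152234350), 4.05 (152221251 to 152221300) and 3.89 (152214151 to 152214200) per the authors' deposited table. Without exon 5 they were 3.57 at 152214151 to 152214200, 3.52 at 152221251 to 152221300 and 3.51 at 152234201 to 152234300 per the authors' deposited table. Each of these 3 places was thus shared by the isoforms, and Rbm38 had listed clusters only at the last of them, where the one at 152234201 to 152234300 was enriched with a log2 fold of 1.97 per the authors' deposited table. For Rbm38 the next were 3.07 (152231451 to 152231500), 2.76 (152218051 to 152218100) and 2.68 (152235701 to 152235850) per the authors' deposited table.

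Along Fubp1, the share of enriched clusters was higher near the 3′ end for all 3 proteins, and Puf60 also had many further upstream. The gene was divided into 10 equal bins. In the last 2 bins, 11 of 11 clusters with exon 5, 17 of 20 without exon 5 and 15 of 19 of Rbm38 were enriched. In the first 8 bins the counts were 24 of 32, 31 of 44 and 12 of 33. Of the enriched clusters, 20%, 16.7% and 22.2% lay within 2000 nt of the 3′ end. Over all protein-coding genes these shares were 15.2%, 15.2% and 43.1%. In bins 5 to 7, Puf60 with exon 5 had a median log2 fold of 2.62 over 19 listed clusters, of which 14 were enriched. Puf60 without exon 5 had a median of 1.68 over 27 there, with 17 enriched, and Rbm38 had 0.14 over 21, with 5 enriched. Bin 8 held no enriched cluster of either isoform and 3 of Rbm38, and bin 1 held 1 enriched cluster, of Puf60 without exon 5. Whether a cluster lies in an exon, an intron or a UTR was not analysed here.

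**Figure D2:**
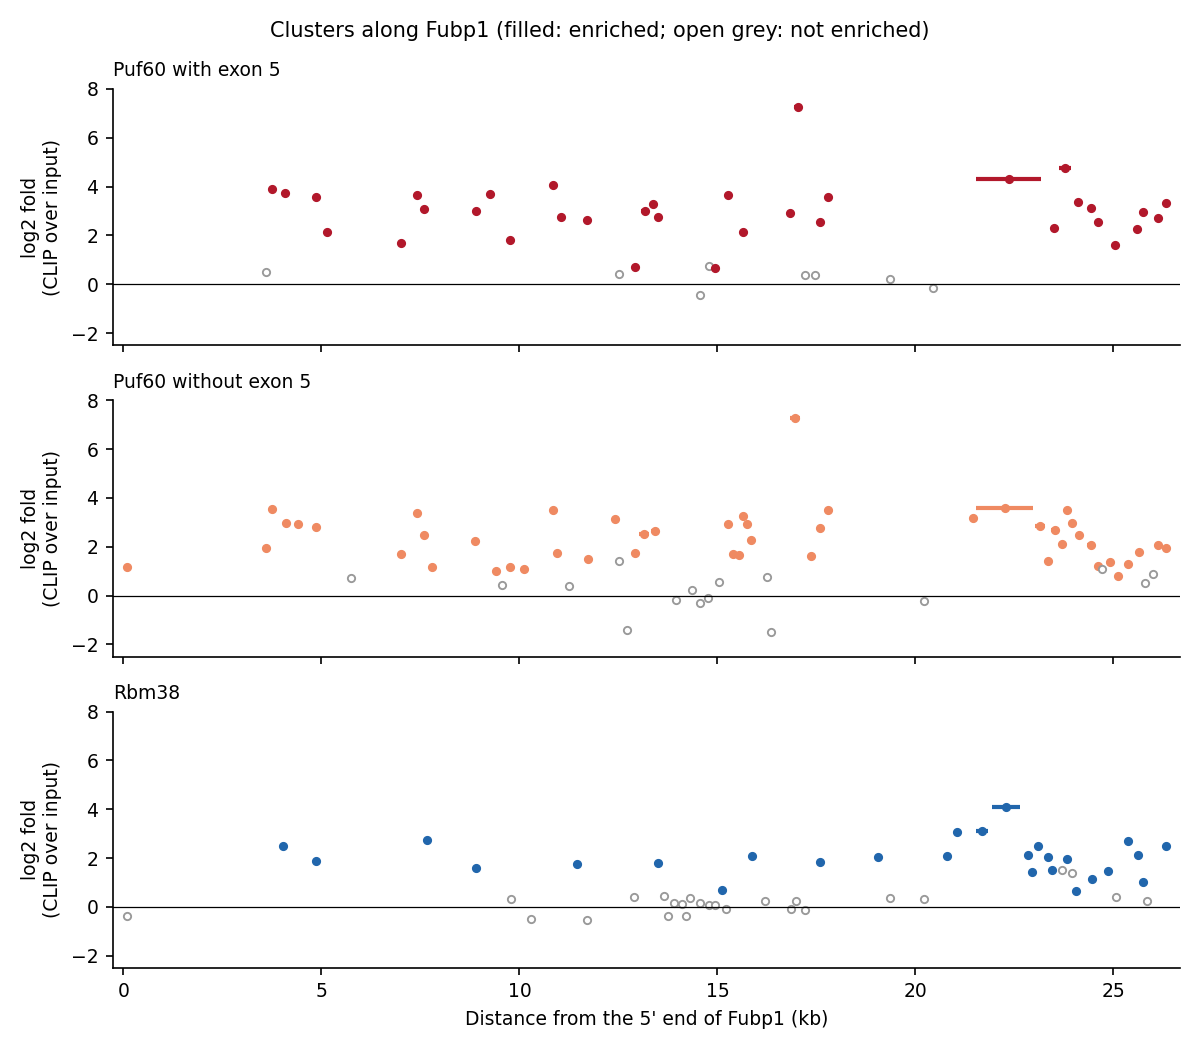
Clusters along Fubp1 for each protein, with the distance from the 5′ end in kb on the horizontal axis and the authors' log2 fold of CLIP over input on the vertical axis. Bars show each cluster's extent, filled points are enriched and open grey points are not. The Puf60 site at 17.0 kb reaches 7.24 and 7.28, where Rbm38 lies near 0, and all 3 proteins are enriched in the long stretch at about 22 kb.

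Fubp3 (gene 320267, chromosome 2, 31572643 to 31617526, plus strand) encodes a family member that binds RNA and single-stranded DNA. Enriched clusters of Puf60 and Rbm38 lay at different places in it. Puf60 had only 2 of them with exon 5 and 1 without, too few to tell this apart from the whole-table shares. Over the whole tables, 22.2% of enriched clusters with exon 5 and 20.0% without overlapped an enriched Rbm38 cluster. Both isoforms were enriched at the very start of the gene, in a cluster of 50 nt that begins at an annotated transcription start, 31572651. Its log2 fold was 4.81 with exon 5 and 3.79 without per the authors' deposited tables, and Rbm38 had no cluster there. This cluster lies within a RefSeq promoter window (GRCm38.p6, the build also called mm10), so its sequence can be shown. Its last 30 bases, chr2:31572671-31572700, plus strand, hold the longest run of C and T in the cluster, given in capitals.
Fubp3 start: acagacgctgCTTTCCCCCaacctatctct
The run is 9 bases long, and 68% of the 50 bases are C or T. Among the first 50 bases after 32851 annotated starts, read on the gene's strand, 11.4% hold a run of C and T at least as long, and 4.26% are at least as rich in C and T, with a median of 48%. A run is a description of the sequence and not a mapped contact.

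Puf60 is known to bind pyrimidine tracts, and other gene starts were read in the same way. For Puf60 with exon 5, 139 start windows of 50 bases overlapped a listed cluster of their strand by at least 50% of both, and 35 of them met an enriched one (25.2%). The median share of C and T was 64% in these and 57% in the others. Without exon 5, 41 of 161 windows met an enriched cluster, with medians of 62% and 56%. For Rbm38, 33 of 124 did, with medians of 58% and 50%. The shares of windows that met an enriched cluster were thus 25.2%, 25.5% and 26.6%. These were below the 39.1%, 36.1% and 50.9% of all clusters enriched in the whole tables, which count clusters and not windows. The median was higher in the windows with an enriched cluster in each of the 3 tables, Rbm38 included, and the difference was not tested. Windows of 1 gene can overlap and were not counted as independent.

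Elsewhere in Fubp3, Puf60 with exon 5 had 1 more enriched cluster, at 31592401 to 31592450, with a log2 fold of 3.48 per the authors' deposited table. Its other clusters lay at 31574901, 31590151 and 31617001, with log2 folds of -1.53, -1.68 and 0.33 per the authors' deposited table. Without exon 5 the other 3 clusters all lay within 1 kb of the 3′ end, with log2 folds of 0.55, 0.21 and 0.50 per the authors' deposited table. None of these 6 was enriched. Rbm38 was enriched at 9 of its 9 clusters. Of these, 7 lay within 2000 nt of the 3′ end (77.8%), against 43.1% of all enriched Rbm38 clusters in protein-coding genes. The highest was internal, at 31598151 to 31598400, with a log2 fold of 4.72 per the authors' deposited table. It was followed by 4.19 at 31617351 to 31617500, 3.10 at 31616351 to 31616400, 3.01 at 31616751 to 31616850 and 2.67 at 31617101 to 31617150 per the authors' deposited table. At the last of these places Puf60 without exon 5 had a cluster of exactly the same extent, listed above at 0.55 and not enriched. The microRNA gene Mir6998 lies inside Fubp3 (31612421 to 31612484), 3767 nt from the nearest of these clusters.

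Khsrp (gene 16549, chromosome 17, 57021049 to 57031507, minus strand) encodes a family member known for binding AU-rich elements and for promoting mRNA decay and microRNA processing. Its clusters were crowded at the 3′ end for all 3 proteins. Enriched clusters numbered 6 of 10 with exon 5, 8 of 10 without exon 5 and 8 of 14 for Rbm38. Of these, 5, 6 and 7 lay within 2000 nt of the 3′ end, or 83.3%, 75% and 87.5%. Over all protein-coding genes the corresponding shares were 15.2%, 15.2% and 43.1%. The gene is 10459 nt long, shorter than Fubp1 and Fubp3, so this stretch is a larger part of it.

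The strongest Puf60 site of Khsrp lay outside that stretch, 2.56 kb from the 3′ end. It had a log2 fold of 3.92 with exon 5 (57023586 to 57023635) and 4.91 without (57023586 to 57023685), and Rbm38 was listed there at 0.14, not enriched, per the authors' deposited tables. At the opposite extreme, the cluster at 57021086 to 57021135, next to the 3′ end, stood at a log2 fold of -0.49 with exon 5 and of -1.49 without it, against 2.53 for Rbm38, per the authors' deposited tables. This cluster has the same extent in all 3 tables, and only Rbm38 was enriched at it.

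Between these points some places were shared and others were not. The remaining leading clusters with exon 5 had log2 folds of 3.45 (57021236 to 57021285), 2.25 (57022036 to 57022085), 2.20 (57021336 to 57021385) and 1.41 (57022336 to 57022385) per the authors' deposited table. Without exon 5 they were 2.82 (57023336 to 57023385), 2.39 (57022036 to 57022085), 2.37 (57021186 to 57021285) and 2.11 (57021336 to 57021435) per the authors' deposited table. For Rbm38 the highest was 2.81 (57021586 to 57021685), then a 400-nt cluster at 57021986 to 57022385 with 2.79, 2.32 (57021736 to 57021835) and 1.96 (57021186 to 57021235), per the authors' deposited table. The 400-nt Rbm38 cluster contains the Puf60 clusters at 57022036 and 57022336, enriched in both isoforms. At 57021336 both isoforms were enriched, while the Rbm38 cluster stood at 0.44, not enriched, per the authors' deposited table. At 57023336 Puf60 without exon 5 was enriched and the overlapping Rbm38 cluster, at 0.65, was not, per the authors' deposited table. Under the highest Rbm38 cluster, Puf60 with exon 5 had one at 57021636 to 57021685 with 0.24, not enriched, per the authors' deposited table. Puf60 without exon 5 was enriched there, at 57021486 to 57021685 with a log2 fold of 1.15, per the authors' deposited table. Farthest from the 3′ end, at 6.91 kb, was an enriched Rbm38 cluster at 57027936 to 57027985 with a log2 fold of 1.72 per the authors' deposited table.

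Myc (gene 17869, chromosome 15, 61985341 to 61990361) encodes the transcription factor whose gene FUBP1 and PUF60 are known to control in human cells. Its strand was taken as plus from its 15 clusters, which all have that offset. Both isoforms were enriched in the body of the Myc gene, and Rbm38 at its 3′ end. At 61989301 to 61989350 the log2 fold was 2.98 with exon 5 and 4.23 without per the authors' deposited tables, and Rbm38 had no cluster. At 61988151 it was 3.01 with exon 5 and 1.52 without, against -0.34 for an overlapping Rbm38 cluster, per the authors' deposited tables. At 61987501 to 61987600 with exon 5 and 61987551 to 61987600 without, it was 1.60 and 2.40 per the authors' deposited tables. Puf60 without exon 5 had 1 more enriched cluster, at 61989701 to 61989750, with a log2 fold of 0.90 (adjusted p = 0.0024) per the authors' deposited table.

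At the 3′ end of Myc the order turned round. Puf60 with exon 5 had log2 folds of 0.30 (61990101 to 61990250) and 0.17 (61990301 to 61990350) and Puf60 without exon 5 had -0.12 (61990101 to 61990350), against 2.63 (61990101 to 61990200) and 2.60 (61990301 to 61990350) for Rbm38, per the authors' deposited tables. These were the 2 enriched Rbm38 clusters of the gene. Not enriched were also a cluster at 61985651 with exon 5 (-1.10) and one at 61989501 without exon 5 (-0.54) per the authors' deposited tables. Enriched clusters thus numbered 3 of 6 with exon 5, 4 of 6 without and 2 of 3 for Rbm38. The whole-table shares were 39.1%, 36.1% and 50.9%, and these numbers of clusters are small. No enriched Puf60 cluster of Myc overlapped an enriched Rbm38 cluster, against 22.2% with exon 5 and 20.0% without over the whole tables. With 3 and 4 enriched Puf60 clusters, no overlap cannot be told apart from these shares. iCLIP reads contacts with RNA, so these values do not bear on binding to the DNA element upstream of the gene.

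**Figure D3:**
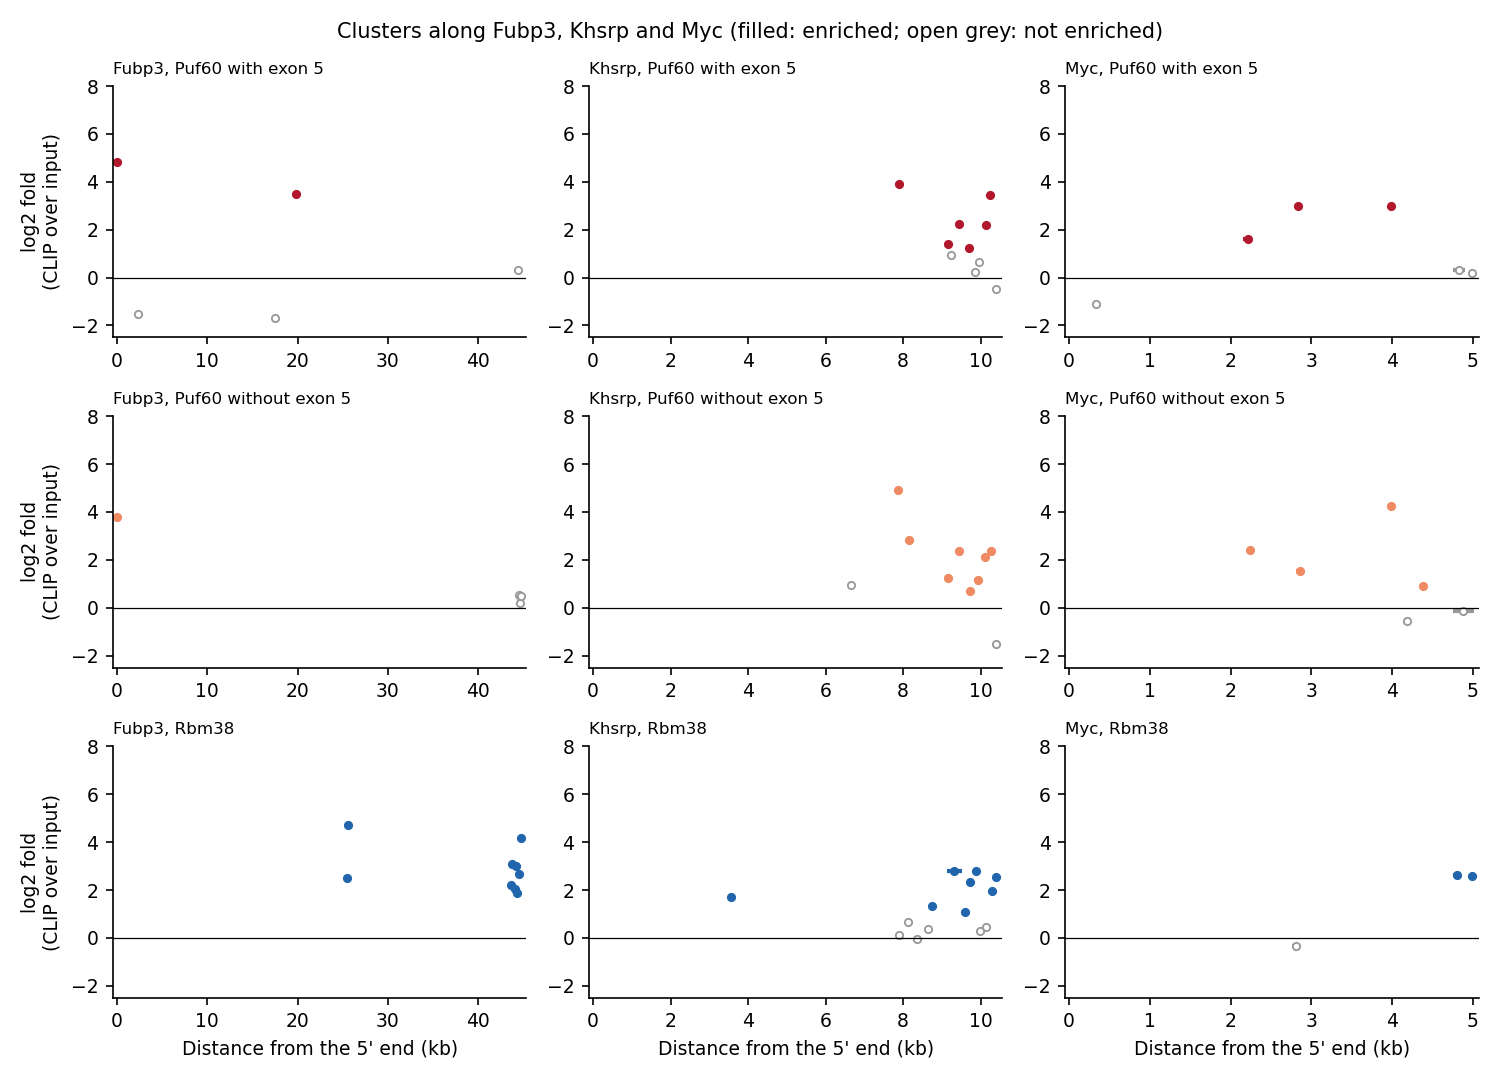
Clusters along Fubp3, Khsrp and Myc (columns) for each protein (rows), with the distance from the 5′ end in kb and the authors' log2 fold of CLIP over input. Filled points are enriched and open grey points are not. Rbm38 is enriched at its last cluster in each gene, where the overlapping Puf60 clusters lie between -1.49 and 0.50, and the highest Puf60 points lie elsewhere.

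Mycn (gene 18109, chromosome 12, 12936093 to 12941836, minus strand), the Myc paralog known for its amplification in human neuroblastoma, had 0 clusters in each table on either strand, and none within 1000 nt of the gene. Whether its RNA was absent, scarce or unbound in these cells cannot be told apart from tables that list only clusters.

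Most clusters enriched with exon 5 in these genes were also enriched without it. This held for 38 of 46 (82.6%) by overlap, against 64.2% over the whole table. In the other direction it held for 38 of the 61 enriched without exon 5 (62.3%), against 63.7% over the whole table. In Fubp1, 19 of the 48 clusters enriched without exon 5 overlapped no listed cluster with exon 5, against 4345 of 14235 over the whole table. In nucleotides the isoforms shared 4400 nt, which was 81.5% of the stretch enriched with exon 5 and 65.7% of that without. In Khsrp and Myc, 6 of 6 and 3 of 3 enriched clusters with exon 5 overlapped an enriched one without it.

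Clusters were also matched one to one by largest mutual overlap, which gave 43 pairs between the isoforms. The log2 fold was higher with exon 5 in 30 of them, with a median difference (with minus without) of 0.50. Over all 20187 pairs of the tables it was higher in 11379, with a median difference of 0.10 and an SD over pairs of 0.71. In Fubp1 the difference was above 0 in 22 of 30 pairs with a median of 0.61, and ranged between -1.46 at 152214001 to 152214050 and 1.38 at 152236701 to 152236800. In Khsrp the median difference was 0.13 over 8 pairs, and in Myc -0.19 over 4 pairs that ran in both directions. In 13 of the 43 pairs the difference exceeded 1 in size (30.2%), against 15.3% of all pairs. It exceeded 2 in none of the 43, against 187 of all 20187 pairs, so this too is near the whole-table share. Only 22 of the 43 had the same extent in both tables. Without values per library, whether any difference is larger than the spread between replicates is unknown.

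Puf60 and Rbm38 shared enriched clusters in Fubp1 and Khsrp, as counts without a test. None were shared in Fubp3 or Myc, where Puf60 had only 2 and 3 enriched clusters with exon 5, and 1 and 4 without. At such numbers, an absence of overlap cannot be told apart from the whole-table shares, so no contrast between genes is drawn. Of the 46 with exon 5, 16 (34.8%) overlapped an enriched Rbm38 cluster, against 22.2% over the whole table. Of the 61 without exon 5, 20 (32.8%) did, against 20.0%. Of the 46 enriched Rbm38 clusters, 19 (41.3%) and 22 (47.8%) overlapped an enriched cluster with and without exon 5, against 12.4% and 11.5% over the whole table. Fubp1 supplied 17 and 18 of these. The shares depend on the overlap asked for. When 50% of both clusters had to overlap, they fell to 21.7% with exon 5 and 18.0% without, against 16.4% and 14.8% over the whole tables. For Rbm38 they fell to 21.7% and 23.9%, against 9.26% and 8.41%. In the 33 matched pairs with exon 5, the median difference (Puf60 minus Rbm38) was 0.84, against -0.64 over 14851 pairs. In the 39 pairs without exon 5 it was 0.41, against -0.92 over 16078 pairs. With exon 5 the median was 1.09 in Fubp1, -0.82 in Khsrp and -2.33 in Myc, over 24, 6 and 3 pairs. Without exon 5 it was 0.60 in Fubp1 over 27 pairs, 0.01 in Khsrp with 4 of 8 pairs higher in Puf60, -0.45 in Myc over 2 pairs that ran opposite ways, and -2.91 in Fubp3 over 2 pairs.

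**Figure D4:**
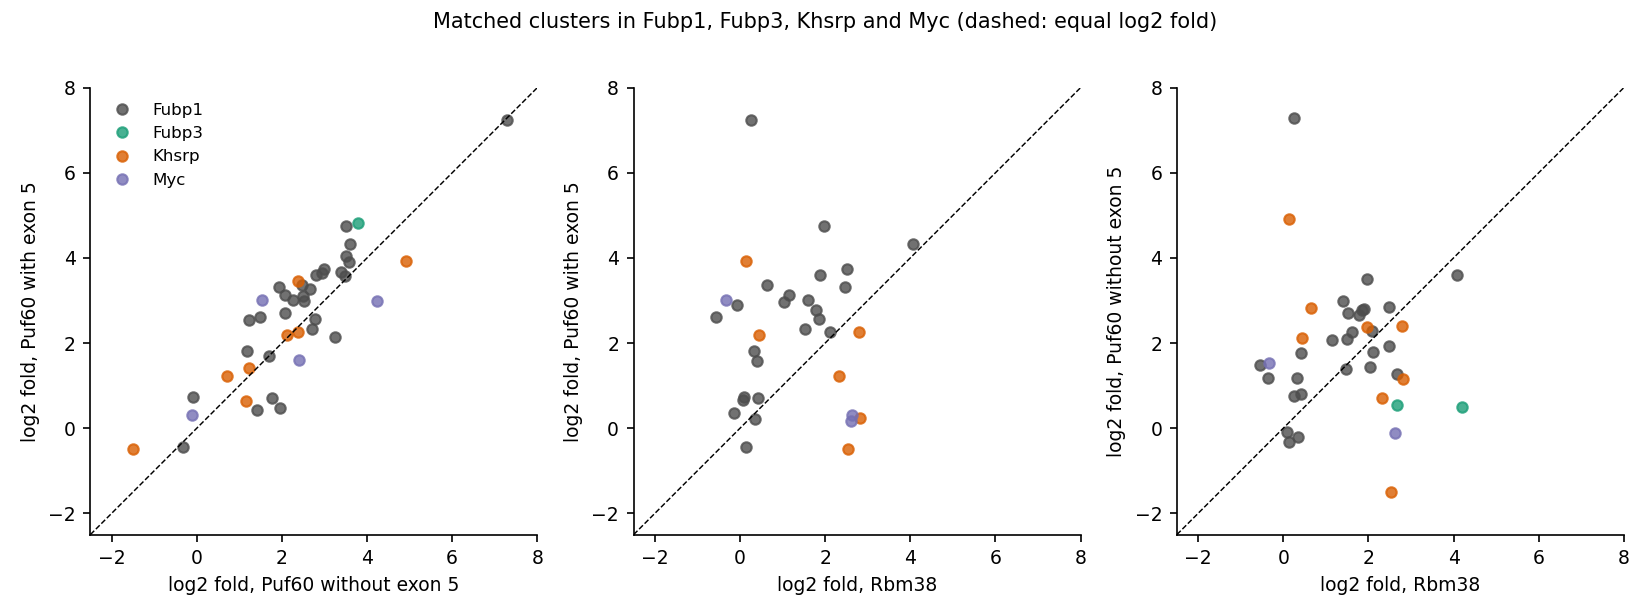
Log2 folds of matched clusters in Fubp1, Fubp3, Khsrp and Myc: Puf60 with exon 5 against Puf60 without (left, 43 pairs), Puf60 with exon 5 against Rbm38 (centre, 33 pairs) and Puf60 without exon 5 against Rbm38 (right, 39 pairs), with equal values on the dashed line. Differences between the isoforms lie within -1.46 and 1.48, and those with Rbm38 within -4.02 and 7.02.

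Other genes of the pathway were read from lists. Of 21 genes of the Myc network, 9 had clusters of Puf60 with exon 5 and 7 of these an enriched one, against 64.6% of protein-coding genes with a listed cluster. Without exon 5 it was 6 of 8, against 62.9%, and for Rbm38 12 of 12, against 84%. These shares are close to the background at such numbers of genes. Huwe1, a ubiquitin ligase that acts on Myc, held most of the Puf60 clusters, with 75 enriched of 123 with exon 5 and 87 of 134 without, against 19 of 116 for Rbm38. Mycbp2, a large ubiquitin ligase, had 15 of 23 and 8 of 17 enriched, against 5 of 14 for Rbm38. Bin1, a membrane-shaping protein that binds Myc, had 4 of 4, 5 of 5 and 8 of 14, and Trrap, a scaffold of histone acetyltransferase complexes that Myc recruits, had 1 of 5, 3 of 8 and 8 of 30. Max, the partner of Myc, had 1 cluster in each table, enriched with exon 5 and for Rbm38, and Mycl had none.

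TFIIH is the complex through which PUF60 acts on MYC transcription in human cells. Of its 10 subunit genes, 4, 7 and 5 had clusters and 3, 4 and 4 had an enriched one, with exon 5, without exon 5 and for Rbm38. That is 75%, 57.1% and 80% of the listed genes, near the 64.6%, 62.9% and 84% of all protein-coding genes. Gtf2h2, a core subunit, led with 3 of 5, 4 of 5 and 1 of 2 enriched. Cdk7, the kinase, had 1 of 1 with exon 5 and 1 of 2 without, and Ccnh, its cyclin, had 0 of 2, 1 of 3 and 1 of 1. Mnat1, their assembly factor, had 0 with exon 5, 1 of 1 without and 1 of 2 for Rbm38. Ercc3, the helicase subunit that human PUF60 is known to inhibit, had 0 clusters in each table on either strand.

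Among 20 genes of AU-rich element and other KH domain proteins, the relatives of Khsrp by function or fold, 11 of 16 listed genes had an enriched cluster with exon 5, 12 of 15 without and 14 of 16 for Rbm38. These shares, 68.8%, 80% and 87.5%, compare with 64.6%, 62.9% and 84% of all protein-coding genes. Pcbp2, a poly(C)-binding KH protein, had 23 of 39, 15 of 30 and 18 of 41 clusters enriched. Hnrnpk, also a KH protein, had 22 of 27 and 24 of 31, against 7 of 18 for Rbm38. Tial1, a U-rich RNA-binding protein, had 16 of 19, 17 of 22 and 14 of 26, and Hnrnpd, which promotes decay of AU-rich mRNAs, had 8 of 15, 12 of 20 and 10 of 22. The median log2 fold over the clusters of this list was 0.96, 0.64 and 0.84, against 0.24, 0.11 and 1.04 over the whole tables. In Fubp1 alone it was 2.77, 1.75 and 1.09.

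The protein-coding genes most like each FUBP gene were found from the number of enriched clusters, on a log2 scale, over 3 tables and 7360 genes. Nearest to Fubp1 were Pcm1 (49, 47 and 23 enriched clusters with exon 5, without exon 5 and for Rbm38), Herc1 (32, 35 and 21) and Hnrnpu (27, 39 and 19). Their distances were 0.52, 0.58 and 0.67, and their highest log2 folds for Puf60 with exon 5 were 4.75, 5.15 and 3.48, against 7.24 in Fubp1, per the authors' deposited table. Pcm1 and Herc1 are 94605 and 158364 nt long and Hnrnpu 17784, against 26409 for Fubp1. Fyttd1 and Prn matched Fubp3 exactly, with 2, 1 and 9, and Slc35a3 followed with 2, 1 and 8. Among the nearest to Khsrp were Vdac3 and Ssb, each with 6, 7 and 8 against its 6, 8 and 8. Likeness over 3 counts is coarse, and nothing about shared control follows from it.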

How the data were processed

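iCLIP of Puf60 (with and without exon 5) and of Rbm38, all Flag-tagged, was compared with size-matched input in N2A cells. Per the submitters' processing notes, the tools were TopHat and edgeR, and mm10 and NCBIM37 were the genome builds. Their roles are not given. The cluster caller, any collapsing of reads by random bases and the use of replicates are not stated in the labels or files. The deposited log2 fold, p-value and adjusted p-value are the authors' comparison per cluster, per the file headers. The direction of the log2 fold is not stated and was read as CLIP over input.

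Cluster starts leave a remainder of 0 or 35 when divided by 50, which was read as plus and minus strand. Of clusters in 1 protein-coding gene alone, 93.9%, 94.2% and 94.7% lay on the strand that the RefSeq promoter table gives on GRCm38 (mm10), the build taken for the coordinates. Strands came from that table (27025 genes) or, as for Myc, from at least 3 clusters of which 80% shared an offset (1393 genes). Ercc3 and Igf2bp1 had no strand and were counted on both. Coordinates are 1-based. Within these genes 38 of 64, 49 of 84 and 52 of 78 clusters share their pair of log2 fold and p-value with another cluster of the table. The shares over all clusters are 72.6% with exon 5, 74.1% without and 73.0% for Rbm38. In these genes 4, 8 and 6 clusters have a p-value under 0.05 but are not enriched by the adjusted p. Among all clusters with a p-value under 0.05, the shares not enriched are 12.7%, 12.2% and 19.1%. Of the 4, 8 and 6 clusters, most pass when the adjusted p is recomputed from the deposited p-values. This gives 49, 67 and 50 enriched clusters in place of 46, 61 and 46. Why the deposited adjusted p differs for them is not known.

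Overlap needed 1 nt on 1 strand unless stated. Wilson intervals used scipy 1.17.1 and tables pandas 2.3.3, and functions were tested on simulated data. Named clusters are the 5 highest per gene and table among enriched ones, or all where a gene has 5 or fewer, with the rest of Myc and Fubp3, clusters of another table at the same place and the Khsrp cluster farthest from the 3′ end added after their values were seen. Named genes are the 4 with most enriched clusters per list and the 3 most alike, of which some are not reported here. Max, Mycl and Ercc3 were named after their values were seen. Genes and lists were chosen with earlier results of these data known. The tables hold no values per replicate, so no test across replicates was run, and nothing says whether replicates are separate cultures.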

Additional observations from a re-analysis of the deposited data

How the results depend on the processing

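Of 33 alternative values for 9 results, 29 stayed within 1.5 times the reported count, equal to the reported log2 fold or inside the interval of the reported share. The other 4 concern overlap with Rbm38. When 50% of each cluster had to overlap, 21.7% of enriched clusters with exon 5 and 18.0% without met an enriched Rbm38 cluster, against 34.8% and 32.8% with 1 nt. The whole-table shares at this overlap, 16.4% and 14.8%, were computed after seeing the data. Over all listed clusters the shares were 54.7% and 47.6%. Enriched counts ranged between 44 and 49, 58 and 67, and 44 and 50 for Puf60 with exon 5, Puf60 without exon 5 and Rbm38, with the recomputed adjustment giving the highest and a log2 fold of at least 1 the lowest. No paired analysis was possible because the tables hold no values per library, and leaving out replicates could not be run for the same reason. Depth is unknown, so what it limits could not be read.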

Other observations

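Both Puf60 tables list an enriched cluster on the strand opposite to Fubp1, at chromosome 3, 152235786 to 152235835, at 3.72 on the log2 scale with exon 5 and 3.72 without it, per the authors' deposited tables. The Rbm38 table lists none there, and its only opposite-strand cluster in these genes, at 152230886 to 152230935, was listed at -0.47 on the log2 scale per the authors' deposited table and was not enriched. The other 4 genes had no cluster on the opposite strand.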
